A study of Mus musculus with 3 samples.

Results

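The pericyte and smooth muscle cells of the embryonic thymus were chosen by measured counts, as droplets in which at least 4 of 6 markers (Acta2, Tagln and Actg2, then Myl9, Tpm2 and Rgs5) reached 2 UMIs each (a UMI is the molecular tag that counts 1 captured transcript), together with at least 1 UMI of the receptor genes Pdgfra or Pdgfrb and none of the epithelial gene Epcam, the hematopoietic gene Ptprc or the endothelial gene Cdh5. There were 455 such cells among 16365 that passed the filters on genes, UMIs, mitochondrial and hemoglobin transcripts, and among 24616 deposited barcodes. These 11 genes chose the cells, so their levels are given as a description and nothing was tested with them. The cells came from thymic lobes of C57BL/6 mouse embryos of gestational age e13 to e13.5, with 1 single-cell library for each of 3 genotypes: 36 member cells from wild-type controls, 311 from the library labelled Tbx1neo2/neo2 and 108 from Foxn1 1089/1089. The Tbx1neo2 allele lowers the output of Tbx1, a T-box transcription factor of the pharyngeal apparatus, through a neomycin cassette inserted in an intron, and is used as a model of the small thymus of DiGeorge syndrome. The Foxn1 1089 allele carries a short deletion in Foxn1, the transcription factor of thymic epithelial cells. Both alleles were carried in every cell of the embryo and not only in mural cells, each genotype was represented by a single line, and the number of embryos behind a library was not given in the sources used here. With 1 library per genotype there were no replicates, so every interval below is a 95% interval that covers counting error only and no p-value was computed.

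Pericytes and vascular smooth muscle cells, together called mural cells, wrap the endothelial tube: pericytes lie on capillaries within the basement membrane, and smooth muscle cells form the contractile and elastic wall of larger vessels. They are recruited by PDGF-B from endothelium, which acts on Pdgfrb, and contact with endothelial Notch ligands is known to hold their contractile program. In the thymus much of this mesenchyme comes from the neural crest, and the perivascular space is a route by which progenitors enter and mature T cells leave.

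The member cells were deeper than their neighbours. Their median depth was 11805 UMIs in the control, 32874 in the library labelled Tbx1neo2/neo2 and 17584 in Foxn1 1089/1089, against 9563, 23992 and 13598 in the other Pdgfra-positive cells of each library (926, 1158 and 2315 cells that carried at least 1 Pdgfra UMI, none of Epcam, Ptprc or Cdh5, and were no members). The members summed to 446316, 11136497 and 1991718 UMIs. Likely doublets, marked by Scrublet and kept, made up 2, 22 and 11 of the members (5.56%, 7.07% and 10.2%), against 0.756%, 2.68% and 4.36% of the other Pdgfra-positive cells. At most 28 barcodes occurred in any pair of libraries, under 0.5% of each, and no barcode was a member in more than 1 library. Tbx1 itself stood at 1.47 CPM (UMIs of the gene per 1000000 UMIs) over all kept cells of the control, 5.04 in the library labelled Tbx1neo2/neo2 and 6.37 in Foxn1 1089/1089, so its transcript was not lower in the library named for its allele, and that library is called by its label throughout. Foxn1 transcripts, at 40.3, 36.9 and 90.8 CPM, do not check the Foxn1 1089 allele, which removes only a short stretch of the gene.

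The 6 markers were unequal in the member cells. Acta2, which encodes smooth muscle actin (GRCm38 chr19:34241090-34255590, minus strand), reached 1853 CPM in the control members, 2581 in those of the library labelled Tbx1neo2/neo2 and 1311 in Foxn1 1089/1089, against 59.0, 18.1 and 34.1 in the other Pdgfra-positive cells. Tagln, which encodes the actin-binding protein transgelin (chr9:45929619-45936058, minus strand), stood at 1456, 1385 and 780 CPM. Acta2 and Tagln thus separated the members from their neighbours widely, whereas Tpm2, a tropomyosin, was at 358, 522 and 559 CPM in members and already at 170, 128 and 214 in the other cells. Myl9, the regulatory myosin light chain, was also present in both, at 659, 854 and 708 CPM in members and 141, 116 and 154 outside them. Rgs5, a regulator of G-protein signaling that marks pericytes, reached 2 UMIs in 33.3% of control members, 80.7% of those in the library labelled Tbx1neo2/neo2 and 36.1% in Foxn1 1089/1089. Actg2, the enteric form of smooth muscle actin, reached 2 UMIs in 22.2%, 45.02% and 22.2%.

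The rule admits cells through either PDGF receptor. Pdgfrb without Pdgfra was found in 8 of 36 control members, 73 of 311 in the library labelled Tbx1neo2/neo2 and 11 of 108 in Foxn1 1089/1089, whereas Pdgfra without Pdgfrb was found in 11, 19 and 29. Both receptors were counted in 17, 219 and 68.

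Smooth muscle genes and some pericyte genes outside the rule were present in the members, whereas other genes of capillary pericytes were at or near 0. Myh11, the smooth muscle myosin heavy chain (chr16:14194535-14291372, minus strand), had 12, 1677 and 62 UMIs in members and 2, 19 and 58 in the far more numerous other cells, which is 26.9, 151 and 31.1 CPM against 0.213, 0.646 and 1.70. Myocd, which encodes the coactivator myocardin, had 3, 220 and 8 UMIs in members and 1, 13 and 1 outside. Among the pericyte genes, Higd1b and Vtn had 0 to 3 UMIs in the members of any library and Atp13a5 had none. Kcnj8, the pericyte potassium channel subunit, was at 184, 120 and 104 CPM in members beside 147, 74.3 and 67.5 in the other cells. These genes are examples. Of the 20 tested genes of the pericyte list, 4 were past 2-fold higher in all 3 libraries and none was lower, as given below. Myh11 was found in only some members: 33 of 36 control cells, 188 of 311 cells of the library labelled Tbx1neo2/neo2 and 93 of 108 Foxn1 1089/1089 cells had no Myh11 UMI. The cells are therefore called members below.

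**Figure D1:**
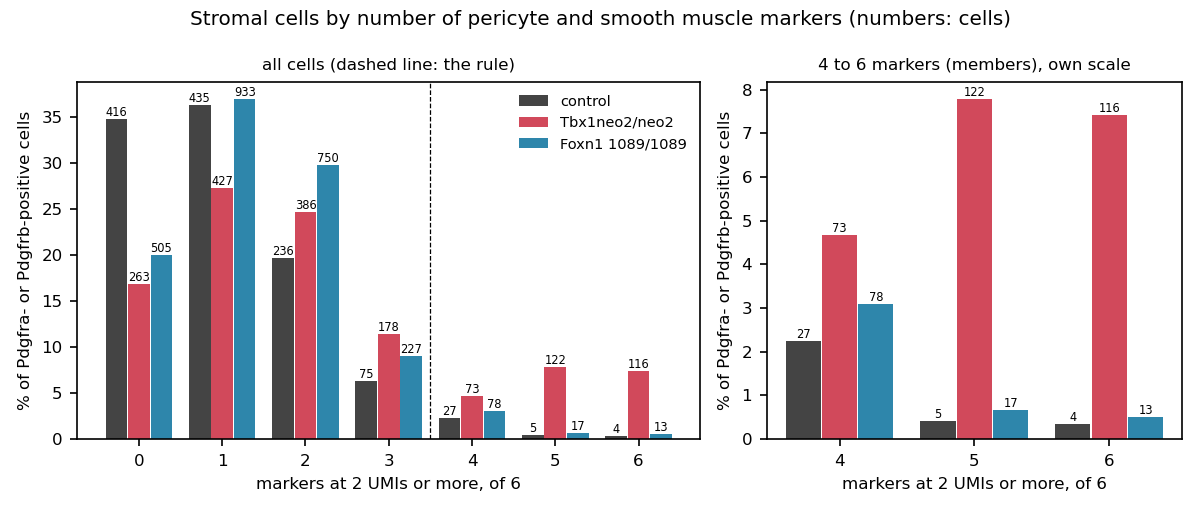
Percent of Pdgfra- or Pdgfrb-positive stromal cells (vertical axis) by the number of the 6 markers at 2 UMIs or more (horizontal axis), for each of the 3 libraries, with cell numbers on the bars and the members alone on their own scale in the right panel. In the library labelled Tbx1neo2/neo2 238 of 311 members carried 5 or 6 markers, against 9 of 36 in the control and 30 of 108 in Foxn1 1089/1089.

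The members differed in how many of the markers they carried. In the control, 27 members had exactly 4 markers, 5 had 5 and 4 had 6, and in Foxn1 1089/1089 the numbers were 78, 17 and 13. In the library labelled Tbx1neo2/neo2 they were 73, 122 and 116. These numbers come from the genes of the rule and were not taken at equal depth, and the members of the last library were the deepest. Just outside the rule, with 3 markers, lay 75, 178 and 227 stromal cells.

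Levels of several genes outside the rule differed with the number of markers. Eln, which encodes elastin (chr5:134702593-134747323, minus strand), went from 53.1 CPM in control stromal cells with 3 markers to 554 with 4 and 3123 with 6. The same steps were 348, 385 and 4806 CPM in the library labelled Tbx1neo2/neo2, and 35.9, 55.6 and 1718 in Foxn1 1089/1089. By summed Eln, cells with 4 markers thus stood near their neighbours with 3 in both mutant-labelled libraries, while in the control the sum stood well above. That control sum rested on few cells. Of the 27 control cells with 4 markers, 20 had neither Rgs5 nor Actg2 at 2 UMIs. These 20 held 6 of the 181 Eln UMIs and stood at 25.8 CPM. Lum, the collagen-binding proteoglycan lumican, was at 676, 653 and 1041 CPM with 4 markers, at 189, 258 and 399 with 5 and at 15.01, 57.4 and 195 with 6. The summed level of 35 smooth muscle contractile genes was 2926, 2599 and 3309 CPM in stromal cells with no marker. In cells with all 6 it was 9894, 9398 and 10613. The sum of the fibroblast list, without the rule gene Pdgfra, was 11425, 21910 and 18720 CPM with no marker. It was 12626, 15171 and 16081 CPM with 4 markers, 14399, 13616 and 14223 with 5 and 5735, 9623 and 8385 with 6. In the control the fibroblast sum was thus below that of cells with no marker only with 6 markers. The control cells with 6 markers were 4, and 208 of the 417 Eln UMIs of all control members lay in them.

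**Figure D2:**
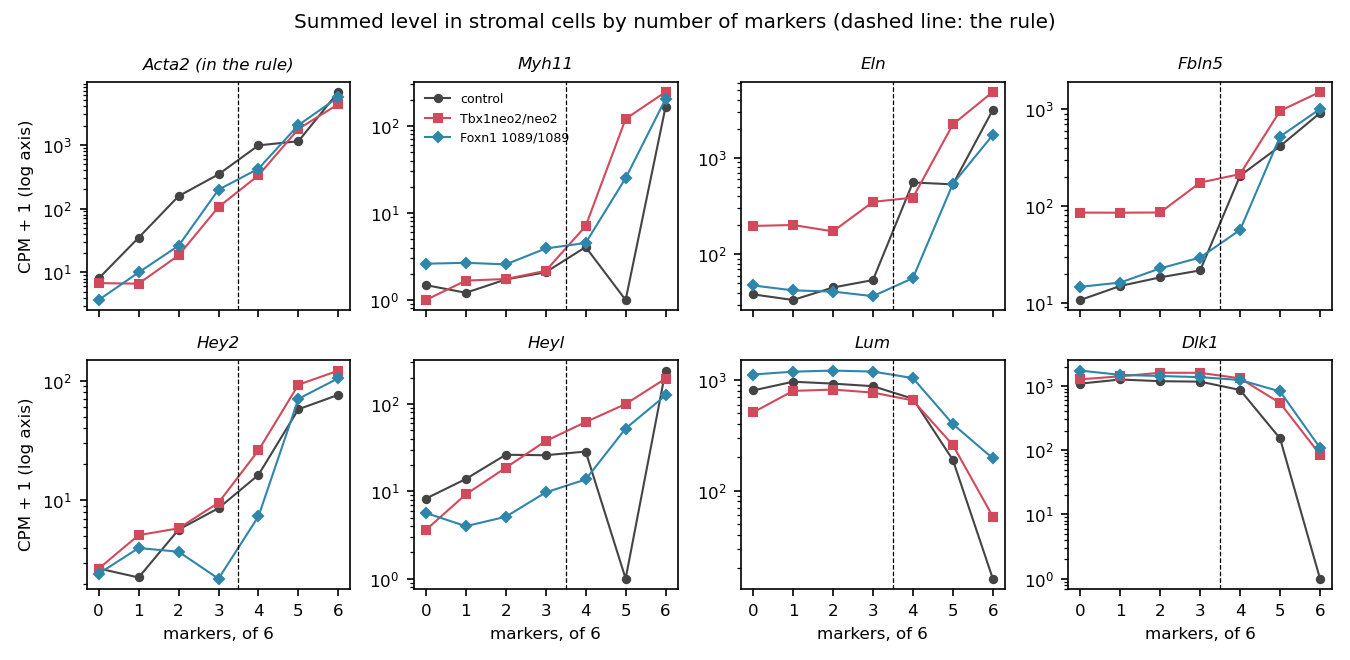
Summed level (CPM + 1, log axis) of Acta2, a gene of the rule, and of Myh11, Eln, Fbln5, Hey2, Heyl, Lum and Dlk1 in stromal cells by the number of markers, 1 line per library. In each library Myh11 and Eln were highest and Lum and Dlk1 lowest in cells with 6 markers; the control points at 5 and 6 markers rest on 5 and 4 cells.

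Members made up a larger part of the stroma in the library labelled Tbx1neo2/neo2 than in the other libraries. Among Pdgfra- or Pdgfrb-positive cells without Epcam, Ptprc and Cdh5 they were 36 of 1198 in the control (3.01%, exact interval 2.11 to 4.14%), 311 of 1565 in the library labelled Tbx1neo2/neo2 (19.9%, 17.9 to 21.9%) and 108 of 2523 in Foxn1 1089/1089 (4.28%, 3.52 to 5.15%). The ratio to the control was 6.61 (4.72 to 9.26) for the first mutant-labelled library and 1.42 (0.983 to 2.06) for the second, whose interval includes equal shares. The first ratio depended on the number of markers asked for, being 3.37 with at least 3 markers and 20.2 with at least 5. Per endothelial cell, with Cdh5 and Pecam1 both counted, the control had 0.923 members (36 over 39, interval 0.570 to 1.49). The library labelled Tbx1neo2/neo2 had 3.75 (311 over 83, 2.93 to 4.83) and Foxn1 1089/1089 had 1.42 (108 over 76, 1.05 to 1.93). The intervals of the control and Foxn1 1089/1089 overlap, and these values were not taken again at equal depth.

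A rule that asks for 2 UMIs of several genes finds more cells in a deeper library. When each cell was thinned to 10000 UMIs (1214, 408 and 1343 cells had fewer and were dropped) the shares were 2.73%, 16.1% and 2.88%, with ratios to the control of 5.90 (3.64 to 9.56) and 1.06 (0.620 to 1.80). At 5000 UMIs they were 1.48%, 11.8% and 1.42%, and the ratios were 7.997 (4.66 to 13.7) and 0.962 (0.513 to 1.81). At equal depth the share in the library labelled Tbx1neo2/neo2 thus stayed well above that of the control, while a difference of Foxn1 1089/1089 from the control was not detectable. At 2000 UMIs the control had 0 members of 652 stromal cells, which allows a share of up to 0.460% by the limit of 3 counts and 0.564% by the exact interval, against 25 of 870 and 6 of 1457.

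The comparison with other Pdgfra-positive cells asked which genes beyond the rule set the members apart. Of 10518 genes with at least 30 UMIs over both kinds of cell in each library, 90 (0.856%) were at least 2-fold higher in members in all 3 libraries and 36 (0.342%) at least 2-fold lower. Among genes outside the rule with at least 100 UMIs in each library, Fbln5 and Eln had the highest smallest difference over the libraries; Hey2, Nrarp, Sncg and Cnn1, below that minimum in the control, had differences of similar size. Because the rule chose these cells by correlated genes, the counts describe the members and are no test.

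The elastic fibre genes came first. Fbln5, which encodes the elastin-binding protein fibulin 5 (chr12:101746565-101819055, minus strand), was at 336, 1048 and 249 CPM in members of the control, the library labelled Tbx1neo2/neo2 and Foxn1 1089/1089, and at 16.5, 95.9 and 18.7 in the other cells. Its log2 differences were 4.35 (4.01 to 4.68), 3.45 (3.39 to 3.51) and 3.73 (3.56 to 3.90). Eln was at 934, 2958 and 336 CPM in members and 46.4, 200.3 and 41.8 in the others, with log2 differences of 4.33 (4.13 to 4.53), 3.88 (3.84 to 3.92) and 3.01 (2.87 to 3.14). Loxl1, a lysyl oxidase that crosslinks elastin, was also past 2-fold in each library, with log2 differences of 1.04, 1.51 and 1.07. These 3 were the only ones of 20 tested elastic fibre genes to do so, and the list's medians, 0.56, 0.53 and 0.60, lay above those of all genes tested (-0.01, -0.10 and 0.00). Mgp, the matrix Gla protein that restrains calcification of vessel walls, was higher by 1.82 and 2.41 in the control and Foxn1 1089/1089 but by 0.63 in the library labelled Tbx1neo2/neo2, where the other cells already stood at 1121 CPM. The elastin level was carried by few cells in the control and Foxn1 1089/1089, whose median member had 0 and 55.3 CPM of Eln, and by most cells in the library labelled Tbx1neo2/neo2, whose median was 1872.

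Contractile genes were the largest group of higher genes. Of 28 tested genes of the contractile list, 10 were past 2-fold in all 3 libraries and none was lower: Csrp1, Fhl1, Nexn, Hspb1, Vcl, Sncg, Cnn1, Mcam, Actn1 and Mylk. The list's medians were 0.89, 1.33 and 0.80. Cnn1, the actin-binding calponin that restrains contraction, was at 35.8, 153 and 30.6 CPM in members and 2.67, 2.24 and 3.43 in the others, which is 3.76 (2.75 to 4.71), 6.08 (5.74 to 6.47) and 3.16 (2.69 to 3.62) on the log2 scale. In the control, 15 of the 16 member Cnn1 UMIs lay in 2 cells, both with Rgs5 and Actg2 at 2 UMIs or more. The control value of Cnn1 thus rests on few cells. Mylk, the kinase that phosphorylates the regulatory light chain, was higher by 2.65, 2.73 and 2.96. Sncg, which encodes gamma-synuclein, was higher by 4.15, 3.44 and 3.89. Actn1, the actinin of dense bodies and focal adhesions, was higher by 1.82, 2.22 and 1.43 and the LIM protein gene Csrp1 by 1.69, 1.60 and 1.63. Des, the intermediate filament of mature muscle, was below 2-fold at 0.84, 0.89 and 0.59.

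Promoter windows are shown for 2 contractile genes, because serum response factor with its partner myocardin is known to act on such genes through the CArG box, and these windows hold that motif. Myl9 is a gene of the rule and Vcl, the focal adhesion protein vinculin, is one of the 90 higher genes. The sequences are from RefSeq, GRCm38.p6, chr2:156775214-156775513 for Myl9 and chr14:20929148-20929447 for Vcl, both on the plus strand, 250 bases before the start and 50 after it, with the CArG box in capitals.
Myl9: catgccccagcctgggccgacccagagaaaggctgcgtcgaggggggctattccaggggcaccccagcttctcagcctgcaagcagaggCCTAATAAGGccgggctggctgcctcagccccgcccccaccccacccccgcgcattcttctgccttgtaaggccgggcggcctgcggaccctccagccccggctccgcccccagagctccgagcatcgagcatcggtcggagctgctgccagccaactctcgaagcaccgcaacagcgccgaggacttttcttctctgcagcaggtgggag
Vcl: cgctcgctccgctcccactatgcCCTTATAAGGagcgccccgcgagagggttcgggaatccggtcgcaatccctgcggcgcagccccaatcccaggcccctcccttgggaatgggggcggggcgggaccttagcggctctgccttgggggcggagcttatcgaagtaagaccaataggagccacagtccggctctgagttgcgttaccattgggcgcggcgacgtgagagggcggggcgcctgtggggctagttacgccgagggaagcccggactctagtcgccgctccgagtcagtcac
The box began at -161 in Myl9 and -227 in Vcl, counted from the start site. It was present in the windows of 7 of the 34 contractile and marker genes with a window (20.6%: Cnn2, Myl6, Fhl1, Fhl2, Ldb3, Vcl and Myl9), in 3 of 67 higher genes with a window (4.48%), in 0 of 27 lower genes and in 488 of 27025 genes (1.81%). A match describes these letters in this window and is not evidence of binding.

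Among Notch pathway genes a ligand and several targets were higher in members. Of 14 tested genes, 4 were past 2-fold higher in all 3 libraries (Jag1, Heyl, Hey2 and Nrarp) and none was lower, and the medians were 0.89, 0.14 and 0.23. No receptor passed. Jag1, a Notch ligand that smooth muscle cells pass to one another, was at 506, 271 and 107 CPM in members and 159, 49.4 and 33.0 in the others, a log2 difference of 1.67 (1.46 to 1.87), 2.46 (2.37 to 2.55) and 1.71 (1.49 to 1.92). Notch3, the receptor of arterial smooth muscle, was higher by 1.28, 1.57 and 0.73, so it was under 2-fold in Foxn1 1089/1089. Notch1 was higher by 0.60, 1.38 and 0.85, and Notch2 was at -0.06, -0.01 and -0.02. Among the targets, the repressor gene Hey2 (chr10:30832359-30842801, minus strand) was at 29.1, 90.2 and 28.6 CPM in members and 2.13, 3.97 and 2.44 in the others, higher by 3.79 (2.64 to 4.85), 4.50 (4.23 to 4.79) and 3.56 (3.04 to 4.06). Nrarp, which feeds back on Notch signaling, was higher by 3.86, 4.82 and 3.43 and the repressor gene Heyl by 2.18, 3.35 and 3.08. Hes1 was not among them, at -0.34, 0.16 and 0.00. The targets were therefore unequal, with Hey2, Heyl and Nrarp high and Hes1 level. Nrarp was also present in Ptprc-positive cells, at 38.7, 11.1 and 7.22 CPM, which is above the 29.1 CPM of the control members; the same Ptprc-positive cells had no Myh11 UMI.

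The Hey2 promoter window is shown because GTGGGAA, a sequence to which the Notch effector Rbpj is known to bind, occurs in it on both strands. The window is RefSeq, GRCm38.p6, chr10:30842734-30843033, minus strand, printed in the direction of the gene with both matches in capitals, the first as the reverse complement.
Hey2: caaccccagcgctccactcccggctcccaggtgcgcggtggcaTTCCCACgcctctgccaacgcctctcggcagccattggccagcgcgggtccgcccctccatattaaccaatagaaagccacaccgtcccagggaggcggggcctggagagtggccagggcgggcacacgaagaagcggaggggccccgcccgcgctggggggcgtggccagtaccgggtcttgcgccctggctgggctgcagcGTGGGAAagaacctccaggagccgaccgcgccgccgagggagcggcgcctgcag
The matches began at -207 and -4 from the start. GTGGGAA was found on either strand in 10 of 67 higher genes with a window (14.9%), 3 of 27 lower genes (11.1%), 3 of 17 Notch pathway genes (17.6%) and 7.25% of all genes with a window.

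**Figure D3:**
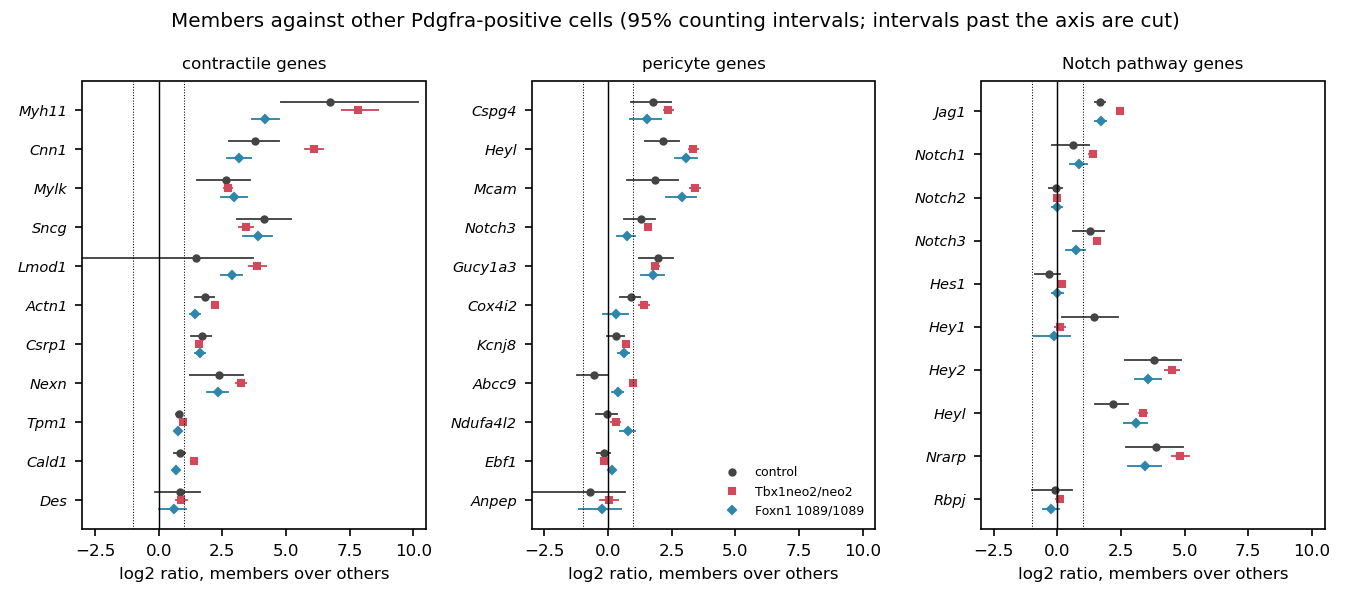
Log2 ratio of CPM in members over other Pdgfra-positive cells (horizontal axis) for contractile, pericyte and Notch pathway genes, 1 point per library with 95% counting intervals, and dotted lines at 2-fold. Cnn1, Hey2 and Nrarp lay beyond 3 in every library, while Kcnj8, Ndufa4l2, Ebf1, Notch2, Hes1 and Rbpj lay within 2-fold of equality.

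Other regulators and signals followed. Of 49 tested smooth muscle transcription regulators, 4 were past 2-fold higher in all 3 libraries: Heyl, Hey2, Mef2c and Prdm6. Prdm6, a repressor known from vascular smooth muscle, was at 35.8, 113 and 33.6 CPM in members, higher by 2.70, 2.99 and 2.04, and the MADS-box factor gene Mef2c was higher by 2.01, 1.42 and 1.78. Pdgfa, a ligand of Pdgfra, was the 1 gene of 14 PDGF and VEGF signaling genes past 2-fold, at 155, 167 and 109 CPM in members and 52.8, 28.9 and 35.3 in the others. In the TGF-beta and BMP list, 2 of 29 were higher, Ctgf by 2.56, 4.19 and 2.75 and Cyr61 by 1.51, 1.13 and 1.59, both matricellular proteins.

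Adhesion and matrix genes gave a few large differences in lists that otherwise stayed near equality. Of 28 integrin and focal adhesion genes, Itga4, Itga6, Vcl and Actn1 were past 2-fold higher and Parvb was lower. Itga4, the alpha4 integrin that binds fibronectin and Vcam1, differed by 1.79 (0.31 to 2.87), 4.57 (4.27 to 4.89) and 2.45 (1.88 to 2.97), with 7, 892 and 39 member UMIs. Fn1, fibronectin itself, was higher by 1.43, 1.10 and 1.18 and was the 1 gene of 22 in the fibrillar collagen and matrix list to pass. No gene of 13 in the basement membrane list was past 2-fold in all 3 libraries, Col4a1 being higher by 0.78, 1.52 and 1.43. Of 20 vasoactive receptor and channel genes, Gucy1a3, a subunit of the nitric oxide receptor guanylate cyclase, was the 1 that passed, by 1.95, 1.85 and 1.76. Of 19 guidance and chemokine genes, the semaphorin receptor gene Plxnd1 passed.

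Of 20 tested pericyte genes, 4 were past 2-fold higher in all 3 libraries, Gucy1a3, Heyl, Mcam and Cspg4, and none was lower. Cspg4, which encodes the pericyte proteoglycan NG2, was at 38.1, 69.2 and 14.6 CPM in members and 11.5, 13.4 and 5.16 in the others, higher by 1.76 (0.89 to 2.47), 2.37 (2.19 to 2.55) and 1.52 (0.88 to 2.07). In Foxn1 1089/1089 the Cspg4 difference was -0.42 when only members with exactly 4 markers were taken, and in the control it was 0.83 without likely doublets and 0.90 when cells were thinned to 10000 UMIs, so that Cspg4 was then no longer called. Abcc9, the partner of Kcnj8 in its channel, was at -0.55, 0.99 and 0.38, and the mitochondrial gene Ndufa4l2 at -0.04, 0.29 and 0.80. The medians of the pericyte list, 0.30, 0.70 and 0.68, were smaller than those of the contractile list.

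**Figure D4:**
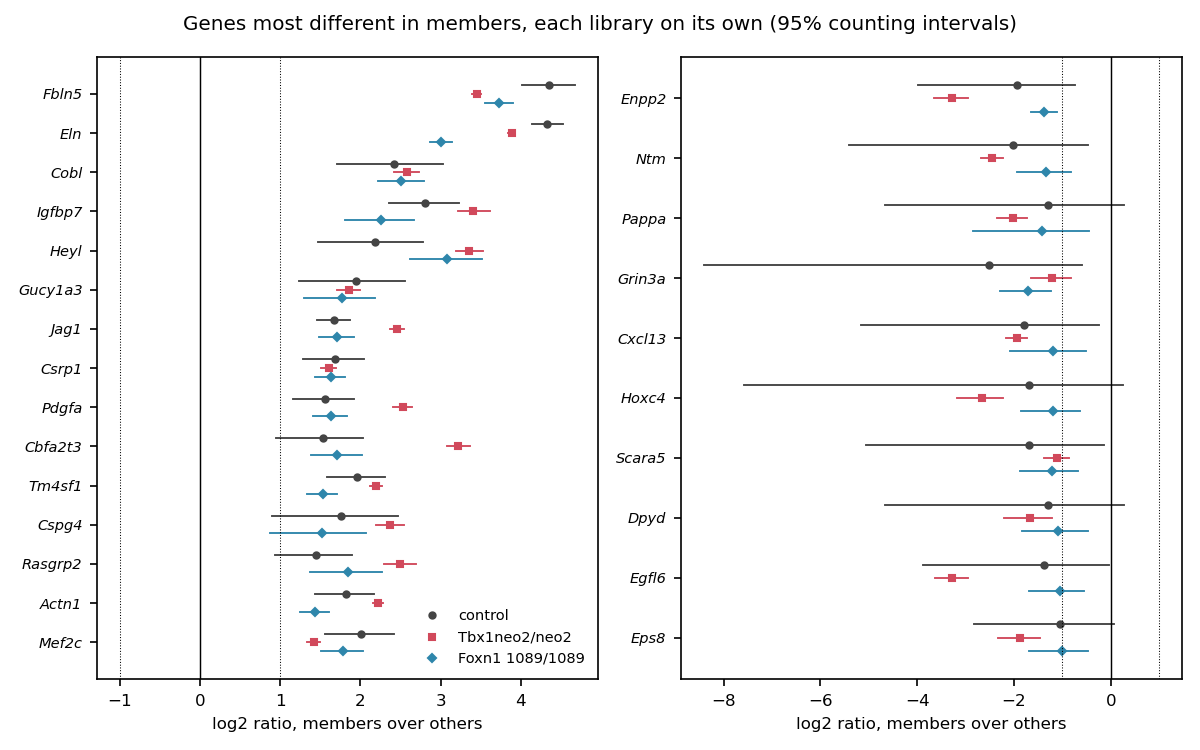
Log2 ratio of CPM in members over other Pdgfra-positive cells for the 15 genes outside the rule, of those with at least 100 UMIs in each library, with the highest smallest difference over the 3 libraries and the 10 with the lowest, with 95% counting intervals. Fbln5 and Eln lay at 3 or more in every library; the lower genes have wide control intervals because 1 to 5 UMIs were counted in control members.

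The remaining named higher genes had varied roles. Cobl, an actin nucleator, was higher by 2.41, 2.58 and 2.51 and was the most even of them. Igfbp7, a secreted protein of vessel walls, was higher by 2.81, 3.41 and 2.26, and the membrane protein gene Tm4sf1 by 1.96, 2.20 and 1.53. Cbfa2t3, a transcriptional corepressor, was higher by 1.53, 3.22 and 1.71, and Rasgrp2, a guanine nucleotide exchange factor for Rap1, by 1.45, 2.50 and 1.84.

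Genes lower in members included fibroblast genes. Of 28 tested fibroblast genes none was higher past 2-fold in all 3 libraries and 2 were lower, Wt1 and Fgf7, each resting on 1 control UMI, and the list's medians were -0.28, -0.86 and -0.34. Dcn, which encodes decorin, was at 421, 226 and 574 CPM in members and 723, 1011 and 909 in the others, lower by -0.78, -2.16 and -0.66 on the log2 scale. Lum differed by -1.01, -1.63 and -0.52, and Dlk1, a Notch-related protein of immature mesenchyme, by -1.03, -1.58 and -0.54. Tcf21, a fibroblast transcription factor, was at 161, 26.8 and 73.8 CPM in members and 270, 110 and 168 in the others. These genes were thus lowest in the library in which most members had 5 or 6 markers. Enpp2, which encodes autotaxin, had 4, 70 and 114 UMIs in members and differed by -1.94 (-3.99 to -0.74), -3.29 (-3.66 to -2.95) and -1.37 (-1.66 to -1.11). Cxcl13, the B-cell chemokine, had 2, 183 and 15 UMIs in members and differed by -1.80 (-5.17 to -0.24), -1.94 (-2.17 to -1.73) and -1.20 (-2.09 to -0.51), but it was higher, by 0.21 and 1.26, in the control and Foxn1 1089/1089 when cells with 3 markers were added to the members. The rest of the 10 named lower genes were Ntm, Pappa, Grin3a, Hoxc4, Scara5, Dpyd, Egfl6 and Eps8, with control differences of -1.05 to -2.52 that rest on 1 to 5 UMIs. Of 10 Hox genes tested, Hoxa5 and Hoxc4 were lower in all 3 libraries, each with 1 control member UMI. None of 37 cell cycle genes was past 2-fold in all 3 libraries, with medians of -0.63, 0.07 and 0.09.

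Members with Rgs5 and members with Actg2 were compared within the library labelled Tbx1neo2/neo2, the only one with more than 20 cells in each class that the comparison names. Rgs5 without Actg2, at 2 UMIs, was found in 133 members, both in 118, Actg2 without Rgs5 in 22 and neither in 38. Eln stood at 2001 CPM in the Rgs5-only cells, 4713 in cells with both, 484 in the Actg2-only cells and 579 in cells with neither. Fbln5 took the same order at its upper end, at 898, 1486, 196 and 253 CPM. Myh11, by contrast, went from 16.3 CPM in Rgs5-only cells through 240 in cells with both to 623 in Actg2-only cells, and stood at 10.1 with neither. The log2 difference of Actg2-only over Rgs5-only cells was 5.25 (4.89 to 5.64) for Myh11, 3.27 (2.999 to 3.55) for Mylk, 3.12 (2.84 to 3.405) for Cnn1 and -2.05 (-2.21 to -1.89) for Eln. Thus the Actg2-only class, with the highest summed Myh11, had a lower summed Eln than the class with both markers. Myh11 and Eln were not compared within single cells.

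Regulators differed between these classes too. Foxf1, a forkhead factor of visceral and lung mesenchyme, was at 8.94 CPM in Rgs5-only, 23.0 in both, 161 in Actg2-only and 17.6 in neither. Its UMIs lay in 7 of 133, 4 of 118, 11 of 22 and 2 of 38 cells, so outside the Actg2-only class its level came from few cells. Tbx5, a T-box factor of heart, limb and lung, was at 1.15, 10.8, 50.2 and 13.4 CPM, in 3, 7, 8 and 5 cells. The related Tbx3 was at 13.3, 9.54, 71.5 and 19.3 CPM. Like Eln, Heyl and Nrarp were highest in cells with both markers, Heyl at 97.6, 192, 62.4 and 52.9 CPM and Nrarp at 46.1, 124, 25.9 and 15.1. The Notch effector gene Rbpj had another order, at 61.0, 44.5, 74.5 and 77.2 CPM, and Hes1 was nearly level, at 146, 149, 120 and 144. Dcn was at 160 CPM in Rgs5-only, 26.6 in both, 1051 in Actg2-only and 838 in neither. Itga4 was highest in cells with both markers, at 146 CPM, against 35.5, 13.7 and 8.39 in Rgs5-only, Actg2-only and neither. Rgs4, a relative of Rgs5, had no UMI in Actg2-only cells and stood at 39.2 CPM in Rgs5-only cells. In Foxn1 1089/1089, 26 members were Rgs5-only, 11 Actg2-only, 13 both and 58 neither, and in the control 8, 4, 4 and 20. Cells with neither were thus the largest class in these libraries, at 53.7% and 55.6% of members. They passed the rule by the other 4 markers. Their Eln was at 46.9 and 25.8 CPM, beside 41.8 and 46.4 in the other Pdgfra-positive cells. Their Myh11 was at 3.83 and 4.30 CPM and their Lum at 1096 and 830. The Actg2-only cells of Foxn1 1089/1089 and of the control had no Myh11 UMI, while their Eln was lower than in Rgs5-only cells by log2 values of -3.06 and -3.28. The high Myh11 of Actg2-only cells was therefore seen in 1 library, in 10 of its 22 cells.

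**Figure D5:**
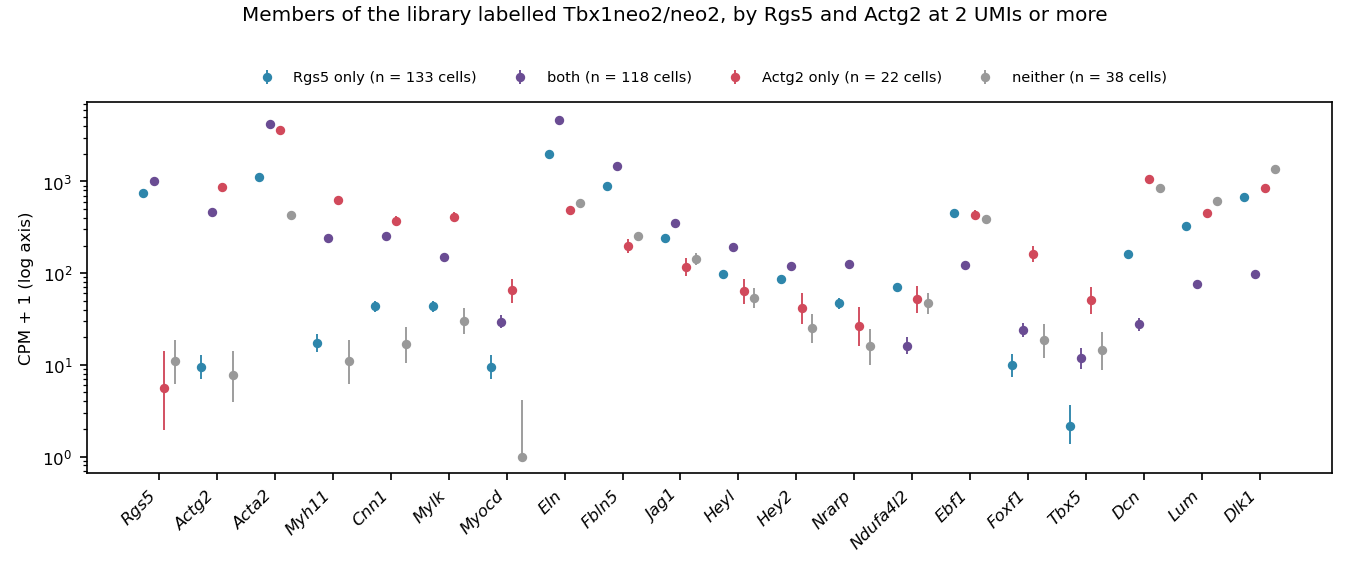
Summed level (CPM + 1, log axis) of 20 genes in members of the library labelled Tbx1neo2/neo2, by whether Rgs5 and Actg2 reached 2 UMIs, with 95% counting intervals; Rgs5 and Actg2 define the classes. Myh11, Mylk, Foxf1 and Tbx5 were highest in the 22 Actg2-only cells, and Eln, Fbln5, Heyl and Nrarp in the 118 cells with both.

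Members were also compared between libraries, each mutant-labelled library over the control, so that both comparisons share the control's 36 cells. In the library labelled Tbx1neo2/neo2, 1633 of 11153 genes tested (14.6%) were at least 2-fold higher than the median ratio and 1135 (10.2%) at least 2-fold lower. In Foxn1 1089/1089, 634 of 7454 (8.51%) were higher and 392 (5.26%) lower. The median log2 ratios were 0.26 and 0.21. Many of these genes rest on few control UMIs, and the whole interval lay past the median ratio for 591 of the 1633 and 709 of the 1135, and for 408 of the 634 and 349 of the 392. The other Pdgfra-positive cells differed 2-fold in the same direction for 22.9% of the higher and 41.7% of the lower genes in the library labelled Tbx1neo2/neo2, and for 12.8% and 47.7% in Foxn1 1089/1089. The values of the other cells are therefore set beside those of the members below.

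Of the contractile list, 13 of 34 tested genes were called higher and 1 lower in members of the library labelled Tbx1neo2/neo2, with a median of 0.94 beside 0.32 in the other cells. In Foxn1 1089/1089, 1 of 26 was higher and 1 lower, with a median of -0.01. Cnn1 was higher by 2.05 (1.39 to 2.91) in members of the library labelled Tbx1neo2/neo2 and at -0.27 (-0.93 to 0.48) in its other cells. The member value rests on 16 control UMIs, 15 of them in 2 cells. Myh11 was higher by 2.43 (1.68 to 3.44) on 12 control UMIs, and Mylk by 2.09 (1.31 to 3.16) beside 2.01 (1.55 to 2.55) in the other cells. Itga4 was higher by 2.25 (1.30 to 3.67) in members and lower by -0.52 in the others, and Ctgf by 1.498 (0.85 to 2.32) beside -0.14 (-0.55 to 0.31). The larger number of markers per member in this library moved with these values, and its part in them was not tested separately from the genotype.

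Of the elastic fibre list, 4 of 19 tested genes were called higher and none lower in the library labelled Tbx1neo2/neo2, and 0 of 18 higher and 2 lower in Foxn1 1089/1089. In the former Eln was higher by 1.66 (1.52 to 1.81) in its members and by 2.11 (1.97 to 2.25) in its other Pdgfra-positive cells. Fbln5 was higher by 1.64 beside 2.53, and Mgp by 2.16 beside 3.35. By class, Eln stood at 2059 CPM in the 8 Rgs5-only control members and 2001 in the 133 of the library labelled Tbx1neo2/neo2. With both markers it was 3123 and 4713, with Actg2 only 204 and 484, and with neither 25.8 and 579. Members with neither were 20 of 36 in the control and 38 of 311 in the library labelled Tbx1neo2/neo2. The part of this make-up in the Eln difference of members was not tested. In Foxn1 1089/1089 members Eln was at -1.47 (-1.65 to -1.29), and at -0.15 (-0.30 to 0.01) in the other cells. Over members and other Pdgfra-positive cells together Eln stood at 86.7, 957 and 58.1 CPM. Members held 48.9%, 84.8% and 32.0% of these Eln UMIs, and 49.2%, 80.5% and 43.7% of those of Fbln5, although they held only 4.54%, 27.4% and 5.52% of all UMIs.

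Of the Notch pathway list, 3 of 15 tested genes were called higher and 3 lower in the library labelled Tbx1neo2/neo2, and 0 of 10 higher and 4 lower in Foxn1 1089/1089. In the library labelled Tbx1neo2/neo2 Hey2 was higher by 1.58 (0.85 to 2.55) and Nrarp by 1.33 (0.60 to 2.30) in members, beside 0.87 and 0.38 in the others, whereas Jag1 was at -0.90 (-1.10 to -0.70) beside -1.69. In Foxn1 1089/1089 Jag1 was at -2.24 (-2.51 to -1.96) in members and -2.27 in the others, so both kinds of cell differed alike. Igfbp7 was at -2.23 beside -1.68 there, and Hey2 at -0.07 (-0.91 to 0.97).

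Several of the most different genes between libraries differed by a similar amount in the neighbours. The imprinted noncoding RNA gene Meg3 was higher by 2.03 in members of the library labelled Tbx1neo2/neo2 and by 2.13 in Foxn1 1089/1089, beside 2.18 and 1.66 in the other cells, and the chaperone gene Calr by 2.09 and 1.90, beside 1.93 and 1.69. The replication-dependent histone gene Hist1h1b was at -3.56 and -3.10, beside -3.97 and -2.94. AY036118 was at -3.96 and -3.11, beside -3.98 and -3.64, and Lars2, a mitochondrial leucyl-tRNA synthetase gene, at -3.38 and -3.97, beside -4.03 and -4.45. The median mitochondrial share of member UMIs was 2.51%, 6.34% and 5.63% in the control, the library labelled Tbx1neo2/neo2 and Foxn1 1089/1089, and its part in these differences was not tested. Tcf21 differed more in members than in neighbours, at -2.60 (-2.97 to -2.20) beside -1.30 in the library labelled Tbx1neo2/neo2. Among members with at least 5 markers the value was 1.84, but the control members then held no Tcf21 UMI. The control side of that ratio was the added 0.5 UMI alone, so no direction is read from it. Hmga2, a chromatin protein of embryonic growth, was higher by 1.94 (1.47 to 2.48) in Foxn1 1089/1089 members and by 0.92 in the others. In the cell cycle list 11 of 37 tested genes were called higher in the library labelled Tbx1neo2/neo2 and 15 of 36 in Foxn1 1089/1089, none lower, with medians of 0.88 and 1.03 beside 0.12 and 0.36 in the other cells. Mki67, a proliferation marker, was at 42.6, 138 and 153 CPM in members, on 19 control UMIs.

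Markers of other cell types were counted in the members as whole lists. Skeletal muscle genes summed to 51.5, 104 and 34.6 CPM in members and 34.9, 39.6 and 39.1 in the others, and heart muscle genes to 8.96, 27.6 and 8.54 against 6.72, 9.003 and 7.83. In the library labelled Tbx1neo2/neo2, 15 of 16 skeletal and 10 of 12 heart muscle genes had a UMI in members, Actc1 and Myh7 the most, and the control members, with far fewer UMIs in all, had 13 and 9 of them at 0, which at this depth does not show that the genes were lower there. The part of these cells in the values of that library was not tested. Endothelial genes summed to 51.5, 56.9 and 45.2 CPM in members and 66.3, 36.6 and 37.8 in the others, with Cdh5 at 0 by the rule and Cldn5 at 0 in all members. Epithelial genes summed to 24.6, 28.3 and 29.1 CPM, hematopoietic genes to 4.48, 8.35 and 8.54, mesothelial genes to 2.24, 7.72 and 15.1 and cartilage genes to 82.9, 159 and 165. Glial and neuronal genes summed to 208, 123 and 222 CPM, below the others' 420, 215 and 397, and were mostly Stmn2. Red blood cell genes were at 193, 245 and 1281 CPM in members and 229, 305 and 1494 in the others, higher in Foxn1 1089/1089 in both kinds of cell.

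The background from free RNA was sought in Ptprc-positive cells, 300, 64 and 153 in number with median depths of 17953, 33001 and 19461 UMIs. Free RNA and transcripts made by the Ptprc-positive cells themselves could not be told apart there. Acta2 was there at 10.96, 6.23 and 0.578 CPM, Eln at 3.97, 5.34 and 1.44 and Myh11 at 0, far below the levels of the members. Tpm2, a marker of the rule, was higher there, at 25.5, 85.4 and 89.0 CPM, beside 358, 522 and 559 in members. How often this level alone reached the 2 UMIs of the rule was not tested. Igfbp7 stood at 18.5, 10.7 and 14.2, which in Foxn1 1089/1089 lies between the 29.1 CPM of the members and the 6.13 of the other Pdgfra-positive cells.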

How the data were processed

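Droplet 3′ single-cell RNA-seq was performed on trypsin-digested thymic lobes of e13 to e13.5 mouse embryos. The deposited values are raw UMI counts per gene and barcode; per the labels, the authors processed the reads with Cell Ranger 3.0.0 against mm10 and used Seurat, and the annotation release was not given in the sources used here. From these counts, cells with at least 200 genes, at least 2000 UMIs, under 20% mitochondrial and under 5% hemoglobin UMIs were kept. Members, markers and gene lists were chosen with earlier results of these data known, and support nothing beyond description. UMIs were summed over members and over other Pdgfra-positive cells of a library and expressed as CPM; log2 ratios used 0.5 added UMI, a minimum of 30 UMIs over the cells compared, and exact conditional intervals, while shares had Clopper-Pearson intervals. A call meant a 2-fold difference, in all 3 libraries for members against others, and past the median ratio for members between libraries. With 1 library per genotype no count model was fitted. Members between libraries and members against others share cells, since the same members enter both.

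Named genes were, outside the 11 genes of the rule, the 15 highest and 10 lowest by the smallest difference over the libraries, among genes with at least 100 UMIs in each library, and, between libraries, the 8 highest and 8 lowest per comparison. A gene that met this rule is not reported here. Genes discussed by list come from the lists; Myh11 and Myocd, below the minimum in the control, are given as UMIs, and the regulators, Rgs4 and Itga4 of the Rgs5 and Actg2 classes were chosen after their values were seen. Likely doublets were marked by Scrublet at 0.8% per 1000 barcodes and kept. Python 3.11.15, NumPy 2.4.6, SciPy 1.17.1, pandas 2.3.3, scanpy 1.11.5 and matplotlib 3.10.9 were used. The computations were tested on simulated data. Alternatives covered the mitochondrial limit, number of markers, depth, doublets, gene minimum, weighting and scaling. Gene positions are from GENCODE for GRCm38 and promoter windows from RefSeq for GRCm38.p6.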

Additional observations from a re-analysis of the deposited data

Results flagged for a closer look

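Cells that carried 4 or more of the markers but failed the rest of the rule were a signal outside the main comparison. They were 12 cells in the control, or 0.242% of the kept cells (exact interval 0.125 to 0.422%), 96 cells or 2.68% in the library labelled Tbx1neo2/neo2 and 47 cells or 0.601% in Foxn1 1089/1089, both above the control. The libraries differed in depth, and these shares were not taken again at equal depth. Epcam was counted in 2, 47 and 34 of them, Ptprc in 2, 7 and 2 and Cdh5 in 1, 9 and 2, and 7, 35 and 10 had neither PDGF receptor. Col14a1, which encodes a fibril-associated collagen, differed in direction between libraries: members against other Pdgfra-positive cells stood at 1.09 on the log2 scale in Foxn1 1089/1089, on 16 member UMIs, and at -1.88 in the library labelled Tbx1neo2/neo2, on 137. The difference between the libraries was not tested.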

How the results depend on the processing

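No paired analysis was possible because each genotype had 1 library and the labels carry no replicate numbers. The alternatives that took exactly 4 markers, and those for the Rgs5 and Actg2 classes and the UMI shares with at least 5 markers or thinned cells, were chosen after seeing the data. With at least 3 markers the members were 9.27%, 31.2% and 13.3% of the stroma in the control, the library labelled Tbx1neo2/neo2 and Foxn1 1089/1089, and with at least 5 markers 0.751%, 15.2% and 1.19%. The ratio of the library labelled Tbx1neo2/neo2 to the control was then 3.37 and 20.2. Thinned to 10000 UMIs the shares of both mutant-labelled libraries were 16.1% and 2.88%, and at 5000 the 3 shares were 1.48%, 11.8% and 1.42%, where the Foxn1 1089/1089 ratio was 0.962.

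Against other Pdgfra-positive cells, 42 genes were higher and 9 lower with at least 3 markers, 169 and 136 with at least 5, 18 and 14 with exactly 4, and 58 and 9 in cells of at least 10000 UMIs. Thinning gave 57 higher genes, a gene minimum of 10 UMIs gave 147, a minimum of 100 gave 36 higher and 11 lower, and the mean of CPM per cell gave 55 lower. Of the 90 higher genes, 79 were also called with at least 5 markers, 11 with exactly 4 and 43 when thinned, and of the 36 lower genes 12, 10 and 5. Of the same 36, 5 were called with at least 3 markers and 8 in cells of at least 10000 UMIs. The gene minimums of 10 and 100 UMIs do not enter the log2 ratio of a gene, so the values under them could not change. With these values counted in, 744 of 750 values of the named genes kept their sign and 667 stayed 2-fold. The exceptions were Cspg4 in Foxn1 1089/1089 with exactly 4 markers, at -0.42, Eps8 in the control with at least 3, at 0.055, and Cxcl13, at 0.21 in the control and 1.26 in Foxn1 1089/1089 with at least 3, and in the control at 1.16 in cells of at least 10000 UMIs and 2.58 when thinned. The cause was not tested.

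Between libraries, Foxn1 1089/1089 had 412 higher and 244 lower genes with at least 5 markers, 1105 and 833 at a minimum of 10 UMIs, 192 and 143 at 100, and 353 and 212 when thinned. The library labelled Tbx1neo2/neo2 had 1004 and 693 at 100. Median-of-ratios scaling gave 2275 higher and 594 lower in the library labelled Tbx1neo2/neo2, against 1633 and 1135, and 864 and 260 in Foxn1 1089/1089, against 634 and 392. Over the named genes 287 of 288 values kept their sign, again with those under the gene minimums, which could not change, counted in. The exception was Tcf21 with at least 5 markers, at 1.84, where the control members held no Tcf21 UMI.

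With at least 3 markers the members held 54.6%, 88.1% and 39.0% of Eln UMIs and 55.4%, 85.5% and 53.6% of those of Fbln5, in library order; with at least 5 they held 34.5%, 83.5% and 28.2%, and 33.6%, 77.9% and 36.7%. Thinned to 10000 UMIs they held 44.8%, 77.5% and 27.6% of Eln, and 72.4% of Fbln5 in the library labelled Tbx1neo2/neo2. Rgs5 without Actg2 was found in 44.4% of control and 46.7% of Foxn1 1089/1089 members with at least 5 markers, and in 57.9% of members of the library labelled Tbx1neo2/neo2 when thinned, where the control had 0% with Actg2 alone. Depth limits the control most: its 36 members hold 446316 UMIs, so genes of low expression had few counts there.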
